A study of Homo sapiens with 4 samples.

Results

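A set of 10 genes that control or mark the epithelial-mesenchymal transition was followed in MCF-10A cells, an established line of non-tumorigenic human mammary epithelial cells. The set held VIM, SNAI1, SNAI2, ZEB1, ZEB2, TWIST1, TWIST2, ESRP1, ESRP2 and RBM47, named for their known roles. Earlier results of these data were known when the set was chosen. Every array probe whose annotated transcript was a RefSeq transcript of 1 of these genes was taken, which gave 16 of 50590 probes and all 10 genes, of 20501 genes with a probe. Of the 10 genes, 5 had 1 probe, 4 genes (ZEB1, TWIST1, TWIST2 and RBM47) had 2 and ZEB2 had 3.

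The cells received a stapled peptide or a non-specific stapled peptide, each at 10 µM for 24 h or 48 h, and total RNA was hybridised to 1-colour Agilent arrays. A stapled peptide is a short helix held in shape by a hydrocarbon bridge between its side chains, here derived from the stretch of BIG3 that binds the repressor PHB2. The labels mark the non-specific arrays as the control treatment and do not say which synthesised analog either arm received, so both arms are called by their labels. There was 1 array for each of the 4 conditions and no untreated array, so no replicate error and no test of any difference could be had, and a difference was called only where it reached 4-fold, which is 2 on the log2 scale.

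The epithelial-mesenchymal transition is a programme in which epithelial cells loosen their junctions and take up a spindle-shaped, motile state. It is driven by DNA-binding repressors of the SNAI, ZEB and TWIST families, which act at short E-box motifs in the promoters of epithelial genes such as CDH1, and its classical marker is the intermediate filament protein vimentin. ESRP1, ESRP2 and RBM47 are RNA-binding proteins that keep the epithelial splicing pattern of transcripts such as CD44, FGFR2 and CTNND1. Basal mammary lines such as MCF-10A are known to carry vimentin and some of the repressors alongside their keratins.

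Promoter sequence was available for 5 of the genes, and 4 windows are shown because they set the promoter of the marker VIM and of TWIST2, both of whose transcripts were lower on 1 array, beside those of the ZEB genes, whose most intense probes moved little. Each window is the 250 bases before an annotated start from RefSeq on build GRCh38.p14, written 5′ to 3′ on the strand of the gene, and capitals mark each E-box, CANNTG, searched on both strands. The windows are chr10:17227991-17228240 on the plus strand for VIM, chr2:238847835-238848084 on the plus strand for TWIST2, chr10:31318167-31318416 on the plus strand for the first listed start of ZEB1 and chr2:144520120-144520369 on the minus strand for ZEB2.
VIM: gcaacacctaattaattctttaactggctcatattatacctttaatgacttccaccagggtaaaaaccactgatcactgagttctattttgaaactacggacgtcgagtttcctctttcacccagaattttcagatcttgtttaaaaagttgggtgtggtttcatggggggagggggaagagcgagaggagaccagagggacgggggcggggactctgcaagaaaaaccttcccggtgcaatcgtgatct
TWIST2: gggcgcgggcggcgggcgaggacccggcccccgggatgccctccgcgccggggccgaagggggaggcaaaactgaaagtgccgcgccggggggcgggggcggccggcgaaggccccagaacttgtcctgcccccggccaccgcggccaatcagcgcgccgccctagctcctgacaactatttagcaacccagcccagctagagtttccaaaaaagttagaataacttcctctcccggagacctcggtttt
ZEB1: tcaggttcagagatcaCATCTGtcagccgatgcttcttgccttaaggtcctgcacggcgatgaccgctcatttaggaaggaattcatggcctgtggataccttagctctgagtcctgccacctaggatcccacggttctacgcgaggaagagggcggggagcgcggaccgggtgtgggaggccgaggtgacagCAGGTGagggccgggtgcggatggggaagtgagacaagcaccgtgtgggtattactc
ZEB2: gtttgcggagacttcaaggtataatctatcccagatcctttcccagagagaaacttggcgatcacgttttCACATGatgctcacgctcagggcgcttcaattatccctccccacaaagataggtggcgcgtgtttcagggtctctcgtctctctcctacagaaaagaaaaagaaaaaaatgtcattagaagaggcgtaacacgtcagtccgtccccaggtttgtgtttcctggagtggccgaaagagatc

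The windows of VIM and TWIST2 held no CANNTG. The ZEB1 window held CATCTG 234 bases and CAGGTG 57 bases before the start, and the ZEB2 window held CACATG 180 bases before it. Among all 35116 windows of this length, 61.8% held a CANNTG and 17.5% held CACCTG or CAGGTG, the form of the E-box that SNAI and ZEB proteins are best known to bind and that is itself a CANNTG. Of the 7 annotated windows of ZEB1, 4 held a CANNTG and 2 held CACCTG or CAGGTG, and of the 4 windows of RBM47, 2 and 1 did. These matches describe the letters alone, and binding was not measured.

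One array stood apart before any of the 10 genes was considered. Over the 32704 to 36193 probes well above background on at least 1 array of a pair, the array of non-specific stapled peptide at 48 h correlated with the other 3 at 0.799 to 0.807, whereas those 3 correlated with each other at 0.976 to 0.978. The shares of spots well above background were alike, at 62.5% to 65.7%, and no spot was saturated. The 12 basal mammary epithelial markers summed to a normalised signal of 146295 to 152905 on the 3 arrays and to 664 on the 4th, where TRIM29 was not above background. The 10 markers of embryonic kidney lines summed to 2753 to 2932 on the 3 arrays and to 29013 on the 4th, where PAX2, PHOX2A and L1CAM were not above background on their most intense probes, while a second PAX2 probe differed by 3.89 at 48 h. Of the 9 with a 48 h difference, 6 were higher by 4-fold or more, against 8.10% of all genes, and 3 were under 4-fold. Among the latter was CDH2, bright on all 4 arrays, which differed by 0.23 and is also in the list of mesenchymal genes read below. The 9 fibroblast markers, with COL1A2 and COL3A1 not above background on any array, summed to 31056 to 33644 against 203. Most of that sum was DCN, at log2 14.84, 14.96, 14.88 and 5.73. LUM was above background on the 4th array alone, and COL1A1 differed by 0.13 at 48 h. Of 6 fibroblast markers with a 48 h difference, 3 were lower by 4-fold or more, against 8.70% of all genes, and 3 were under 4-fold. The 5 endothelial markers summed to 684 to 770 against 65.1, and the 5 leukocyte markers to 1437 to 1517 against 296. The basal markers of the labelled cell type were thus high on 3 arrays and low on the library labelled non-specific stapled peptide at 48 h, so that library goes against its label of MCF-10A cells. Whether it holds the labelled sample was not tested, and neither was the part of these markers in the results. Every 48 h difference between the peptides and every change over time with the non-specific peptide rests on this 1 library, and each is a value of that library as labelled, which cannot be told apart from a difference due to the peptide. The values without it are those at 24 h and those over time with the stapled peptide.

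Across the 10 genes, the 48 h comparison showed lower VIM, SNAI2, TWIST1 and TWIST2 signal on the library labelled non-specific stapled peptide than on that of the stapled peptide. ZEB1, ZEB2, SNAI1, ESRP2 and RBM47 stayed under 4-fold, and ESRP1 was not measured. Of the 9 genes with a difference, 4 were lower by 4-fold or more against a background of 8.70% of 17112 genes, and 0 were higher against 8.10%. In either direction the background was 16.8%. The median difference, non-specific minus stapled on the log2 scale, was −0.73 over the 9 genes and 0.03 over all genes. The central 95% of all genes ran from −4.16 to 3.41, and the 8 differences other than that of TWIST2 lay inside it. That of TWIST2 is a bound, −3.80, and could not be placed against these limits. After another background correction, normexp on the raw signals, VIM and TWIST1 stayed past 4-fold, and SNAI2, at −1.69, and TWIST2, at −1.79, did not. With that correction 9.03% of 17106 genes passed 4-fold.

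**Figure D1:**
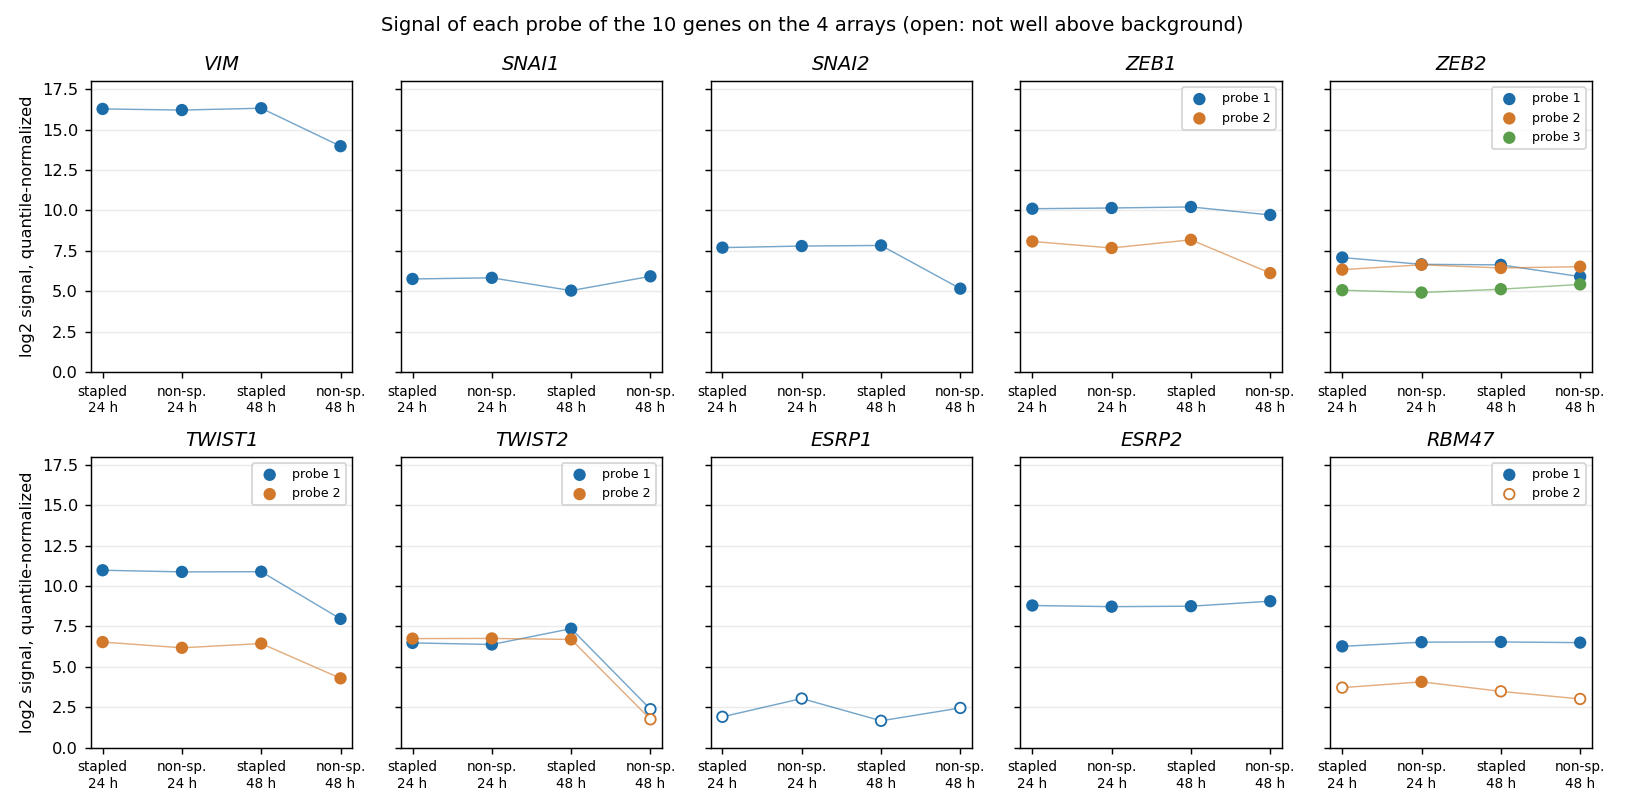
Normalised log2 signal of the 16 probes of the 10 genes on each of the 4 arrays, with 1 point per array, lines to guide the eye and open points where the probe was not well above background. The array of non-specific stapled peptide at 48 h lies below the other 3 for VIM, SNAI2, TWIST1 and TWIST2 and near them for ESRP2 and the first RBM47 probe.

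VIM, which encodes vimentin, the intermediate filament protein of mesenchymal and basal cells, was read by 1 bright probe. Its normalised log2 signal was 16.28 with stapled peptide at 24 h, 16.20 with non-specific peptide at 24 h, 16.32 with stapled peptide at 48 h and 13.97 with non-specific peptide at 48 h. The first 3 arrays lay within 0.11 of each other, and the 4th was far below that range. Before normalisation the same 4 signals were 85105, 75984, 75744 and 15097, so VIM remained a strong signal on the array where it was lowest. At 48 h VIM was 5.09-fold lower on the library labelled non-specific, a log2 difference of −2.35, against −0.07 at 24 h.

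Among the repressors, the SNAI pair divided. SNAI2, which encodes Slug, the zinc finger repressor known for its part in basal mammary cells, had log2 signals of 7.69, 7.79, 7.83 and 5.16 in the same array order. The 4th array was again the low one, and the other 3 overlapped within 0.13. SNAI2 was 6.38-fold lower on the library labelled non-specific at 48 h, a log2 difference of −2.67. SNAI1, which encodes Snail, the founding member of the family and a repressor of CDH1, had signals of 5.76, 5.83, 5.04 and 5.92. Its low array was the stapled peptide at 48 h, and the 48 h difference of 0.88, or 1.84-fold, came mostly from that array, since the non-specific peptide at 48 h lay 0.16 above the median of the other 3 arrays.

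ZEB1 and ZEB2 encode large zinc finger and homeodomain repressors that the miR-200 family holds down in epithelial cells. The most intense ZEB1 probe gave 10.10, 10.15, 10.21 and 9.72, a 48 h difference of −0.49. The other ZEB1 probe, annotated to the same RefSeq transcript, gave 8.08, 7.67, 8.18 and 6.12, a 48 h difference of −2.06. Both probes were lowest on the non-specific 48 h array, but they differed in size by more than 1 log2 unit, so whether ZEB1 passed 4-fold depended on the probe. The most intense ZEB2 probe gave 7.08, 6.66, 6.63 and 5.90, a 48 h difference of −0.73. A second ZEB2 probe gave 6.33, 6.63, 6.44 and 6.52, a difference of 0.08, and the third, on a non-coding ZEB2 transcript, gave 5.06, 4.92, 5.12 and 5.42, a difference of 0.30. The ZEB2 probes thus took both signs, and none reached 4-fold.

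TWIST1 and TWIST2 encode basic helix-loop-helix factors that bind E-boxes and are known in mesoderm and in invasive cells. The most intense TWIST1 probe gave 10.98, 10.88, 10.89 and 7.97, and the other gave 6.54, 6.18, 6.44 and 4.29. Both stood lowest on the non-specific 48 h array, with the other 3 arrays within 0.10 and 0.35 of each other. At 48 h the probes were 7.56-fold and 4.44-fold lower on the library labelled non-specific, log2 differences of −2.92 and −2.15. Unnormalised, the first TWIST1 probe read 2104, 1934, 1697 and 274.

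TWIST2 passed out of the measured range on the non-specific 48 h array while it was measured on the other 3. Its most intense probe gave 6.48, 6.39, 7.36 and 2.38, and its other probe 6.75, 6.76, 6.70 and 1.76, the last value of each not well above background. Raised to the lowest measured signal of that array, the 2 probes were at least 13.9-fold and at least 8.77-fold lower on the library labelled non-specific at 48 h, log2 bounds of −3.80 and −3.13. The first probe was also 0.88 higher with the stapled peptide at 48 h than at 24 h, which the second probe did not show, at −0.05.

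**Figure D2:**
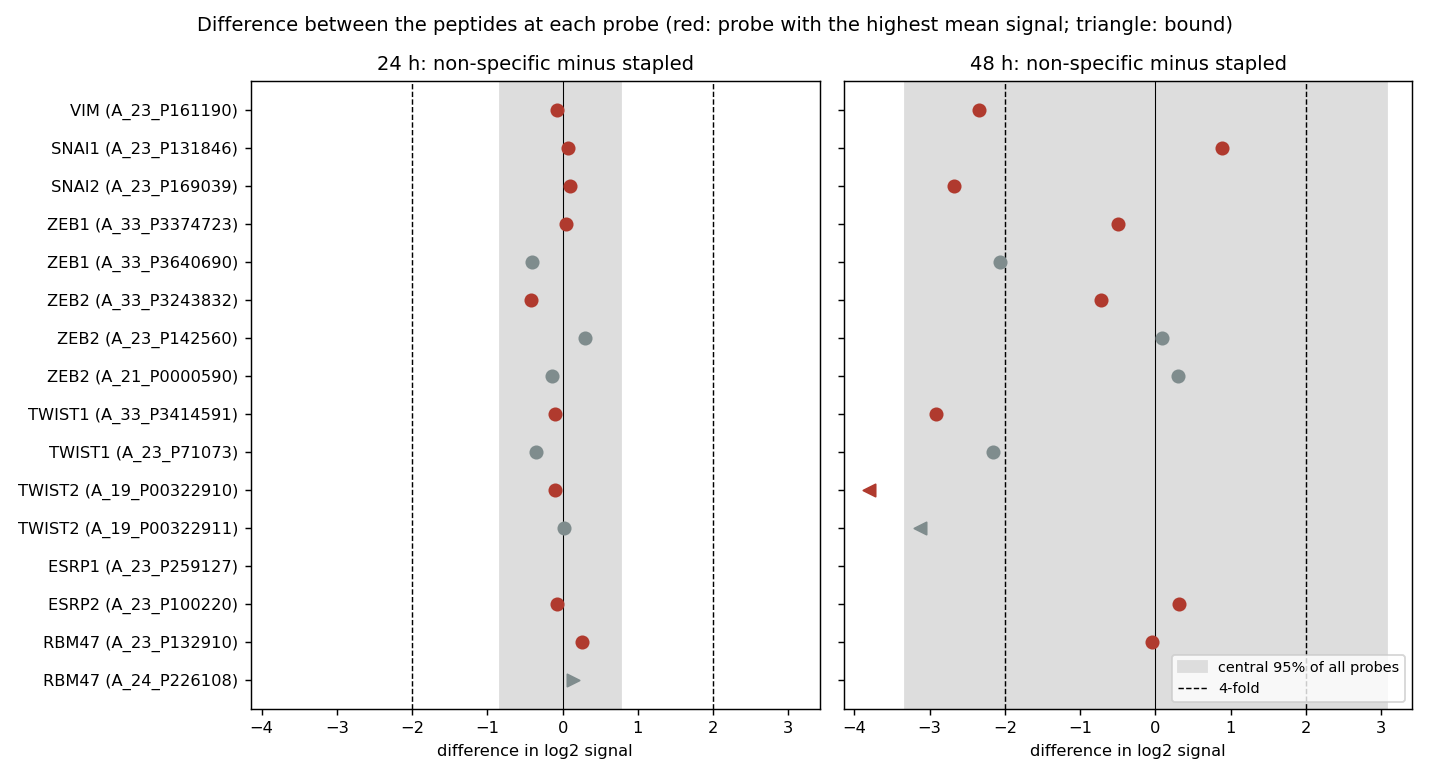
Difference in normalised log2 signal, non-specific minus stapled, for each probe of the 10 genes at 24 h and at 48 h, with dashed lines at 4-fold, a grey band for the central 95% of all probes and triangles for bounds. At 48 h, 7 of 14 probes lie below the 4-fold line and none above it, whereas no probe reaches it at 24 h.

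The epithelial splicing regulators differed little between arrays where they were measured. ESRP2, which keeps epithelial exons in transcripts such as FGFR2, had 10 spots of 1 probe on each array and gave the only within-array replication in the set. Its signals were 8.80, 8.73, 8.75 and 9.07, with an SD over the 8 or 9 spots used of 0.04 to 0.07, a technical spread within an array. The non-specific 48 h array was the highest, and the other 3 lay within 0.07 of each other. The 48 h difference of 0.31, or 1.24-fold, was larger than that range and than the spot spread. It was under the SD between the 24 h arrays, 0.43 over all 32921 measured probes and 0.34 over genes. Those SDs pool bright and dim probes and are no measure for a bright probe with many spots. RBM47, an RNA-binding protein that acts with the ESRPs, gave 6.27, 6.53, 6.54 and 6.50 on its first probe, with the 4th array inside the range of the other 3. Its 48 h difference was −0.04, a sign that turned under some processing settings. The second RBM47 probe gave 3.72, 4.07, 3.49 and 3.02 and was well above background on the non-specific 24 h array alone.

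ESRP1, the more epithelium-restricted paralog of ESRP2, had 1 probe with signals of 1.91, 3.04, 1.67 and 2.46. None was well above background, so no fold could be given. A change of ESRP1 was therefore not detectable.

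At probe level, 7 of the 14 member probes with a 48 h difference passed 4-fold, against 13.7% of all 35560 probes past 4-fold in either direction. All 7 were lower, and the share of all probes lower was not computed. Both probes of TWIST1 and both of TWIST2 were among them, so the 7 are not separate genes. The non-specific 48 h array lay below the range of the other 3 for 10 of the 16 probes, above it for 3 and inside it for 3. The share over all probes was not computed, so this count is not a result about these genes. It takes in the ESRP1 probe, dim on every array, and the second RBM47 probe, dim on the non-specific 48 h array. The probes of TWIST1 and of TWIST2 gave the same direction, those of ZEB1 gave the same direction at unlike sizes, and those of ZEB2 did not share a direction.

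At 24 h the 10 genes hardly differed between the peptides. Of the 9 genes with a value, 0 passed 4-fold, against a background of 0.413% of 16228 genes (0.142% higher and 0.271% lower). The differences ran from −0.42 for ZEB2 to 0.26 for RBM47 with a median of −0.07, 4 higher and 5 lower, and all lay inside the central 95% of genes, −0.65 to 0.64. The genes called at 48 h were near level at 24 h, VIM at −0.07, SNAI2 at 0.10, TWIST1 at −0.10 and TWIST2 at −0.10.

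Over time the arms parted, although the non-specific series shares its 48 h array with the comparison of peptides and is no separate evidence. Between the libraries labelled non-specific, VIM, SNAI2, TWIST1 and TWIST2 were lower at 48 h than at 24 h by 4-fold or more, against a background of 8.47% of 17297 genes lower, 8.12% higher and 16.6% past 4-fold either way. The log2 differences were −2.23 for VIM, −2.64 for SNAI2, −2.91 for TWIST1 and at most −2.82 for TWIST2. With the stapled peptide, 0 of 9 passed 4-fold, against a background of 0.521% of 16138 genes (0.229% higher and 0.291% lower). The stapled differences were 0.04 for VIM, 0.13 for SNAI2, −0.09 for TWIST1 and 0.88 for TWIST2, and those of TWIST2 and of SNAI1, at −0.72, lay outside the central 95% of genes, −0.67 to 0.62. With the non-specific 48 h array left out, no member gene therefore passed 4-fold in any comparison made.

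**Figure D3:**
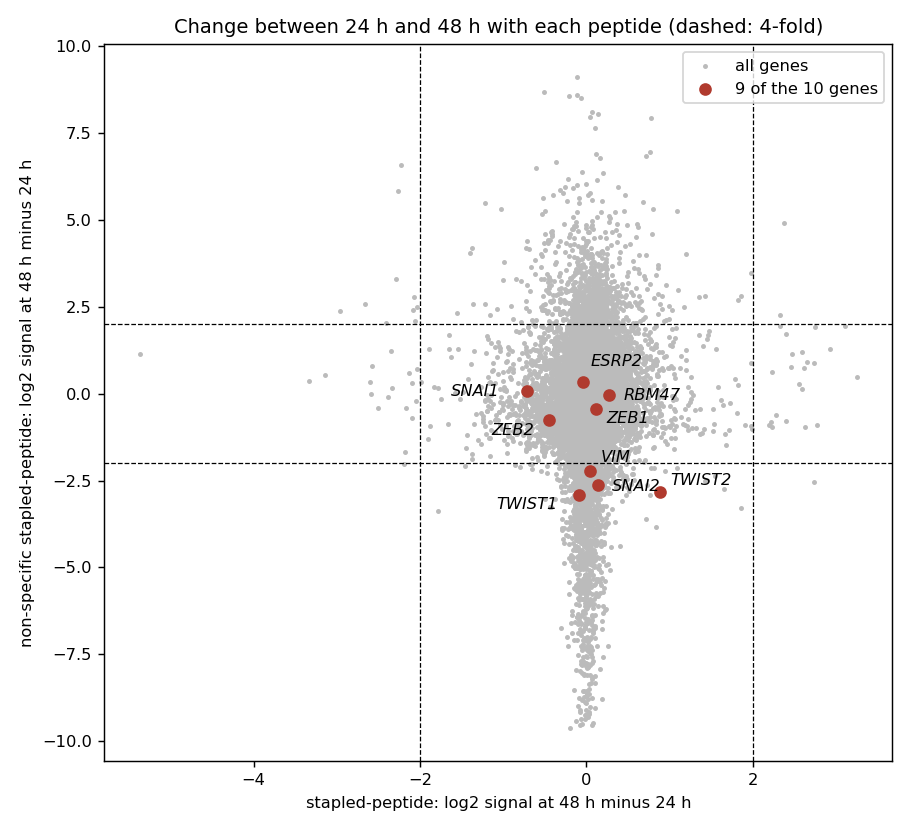
Change from 24 h to 48 h in normalised log2 signal with the stapled peptide (horizontal axis) against that with the non-specific peptide (vertical axis), for the genes with a value in both and at 48 h and for 9 of the 10 genes by name. VIM, SNAI2, TWIST1 and TWIST2 lie below −2 on the vertical axis, and no named gene reaches 2 in either direction on the horizontal axis.

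The question was whether loss of epithelial genes at 48 h went with a switch to a mesenchymal state, so the epithelial and mesenchymal genes around the 10 regulators were read in the same comparison. Of 30 measured genes of epithelial adhesion and polarity, 7 were lower and 3 higher by 4-fold or more and 20 were under 4-fold, against 8.70% lower and 8.10% higher among all genes, so the share higher was near that of all genes. Their median difference was −0.39, and it was −0.62 after scaling to the 75th percentile and −0.18 without normalisation between arrays. Without normalisation 6 were lower and 5 higher, where 18.1% of all genes passed 4-fold. Of 27 measured mesenchymal genes, a list that does not hold VIM, 17 were lower, 1 was higher and 9 were under 4-fold against the same shares. Their median was −2.84 against 0.03 for all genes. Bounds made up 12 of these 27 differences, and 8 of the bounds were past 4-fold. With only probes above background on both arrays, 9 of 15 mesenchymal genes were lower and 1 was higher, with a median of −2.77. Of 25 adhesion genes 4 were lower and 3 higher there, with a median of −0.31, against 13.8% of all genes past 4-fold. At 24 h the medians of both full lists were 0.04. A gene weak with the stapled peptide at 48 h could not be called lower, since the lowest measured signal of the other array was 3.57. CDH1 at 5.44, CLDN4 at 5.32 and CRB3 at 5.22 of the adhesion genes were such cases, as was PDGFRB at 5.40 of the mesenchymal genes. Brighter genes such as DCN and FN1 had more room to fall, and the part of signal level in the contrast of the lists was not tested.

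Among the adhesion genes, PKP3, a desmosomal plakophilin, had log2 signals of 11.89, 11.80, 11.89 and 4.05, a difference of −7.84 at 48 h. MUC1, a membrane mucin, was lower by −5.23 on its most intense probe and by −1.25 on the other, and SPINT1, an inhibitor of epithelial surface proteases, had a bound of −4.21. CGN, the tight junction protein cingulin, went the other way with 3.73 (not well above background), 4.46, 4.73 and 9.05, a difference of 4.32. CDH1, the E-cadherin gene that SNAI and ZEB factors repress, was weak on all 4 arrays at 4.92, 5.25, 5.44 and 5.13, a 48 h difference of −0.31. EPCAM gave 4.86, 5.44, 5.58 and 6.46, a difference of 0.88. OCLN, the tight junction protein occludin, was the 1 gene of all these lists to pass 4-fold between arrays other than the non-specific 48 h array, with 4.57, 6.65, 4.59 and 6.06, a 24 h difference of 2.09.

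In the mesenchymal list, the matrix proteoglycan gene DCN gave 14.84, 14.96, 14.88 and 5.73, a difference of −9.15. FN1, fibronectin, gave 12.42, 12.35, 12.61 and 3.12, the last not well above background, a bound of −9.05. Bounds of −7.03 for FAP, a surface protease of activated fibroblasts, and −6.68 for CCN2, a matrix-associated growth modulator, and a difference of −6.39 for S100A4, a calcium-binding protein of motile cells, followed. COL5A1, a fibrillar collagen chain, was the only mesenchymal gene higher by 4-fold, with 5.11, 4.91, 5.41 and 7.71, a difference of 2.30. CDH2, the N-cadherin gene whose gain marks the classical cadherin switch, had 10.94, 10.87, 11.05 and 11.27, a difference of 0.23. Neither cadherin reached 4-fold at 48 h. CDH1 could not have been called lower, since its 5.44 with stapled peptide lay within 4-fold of the lowest measured signal of the other array, 3.57. Its lack of a call is therefore no result about a cadherin switch. The fibroblast markers given above overlap this list, and in bulk RNA fewer cells of a type and less RNA per cell cannot be told apart.

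**Figure D4:**
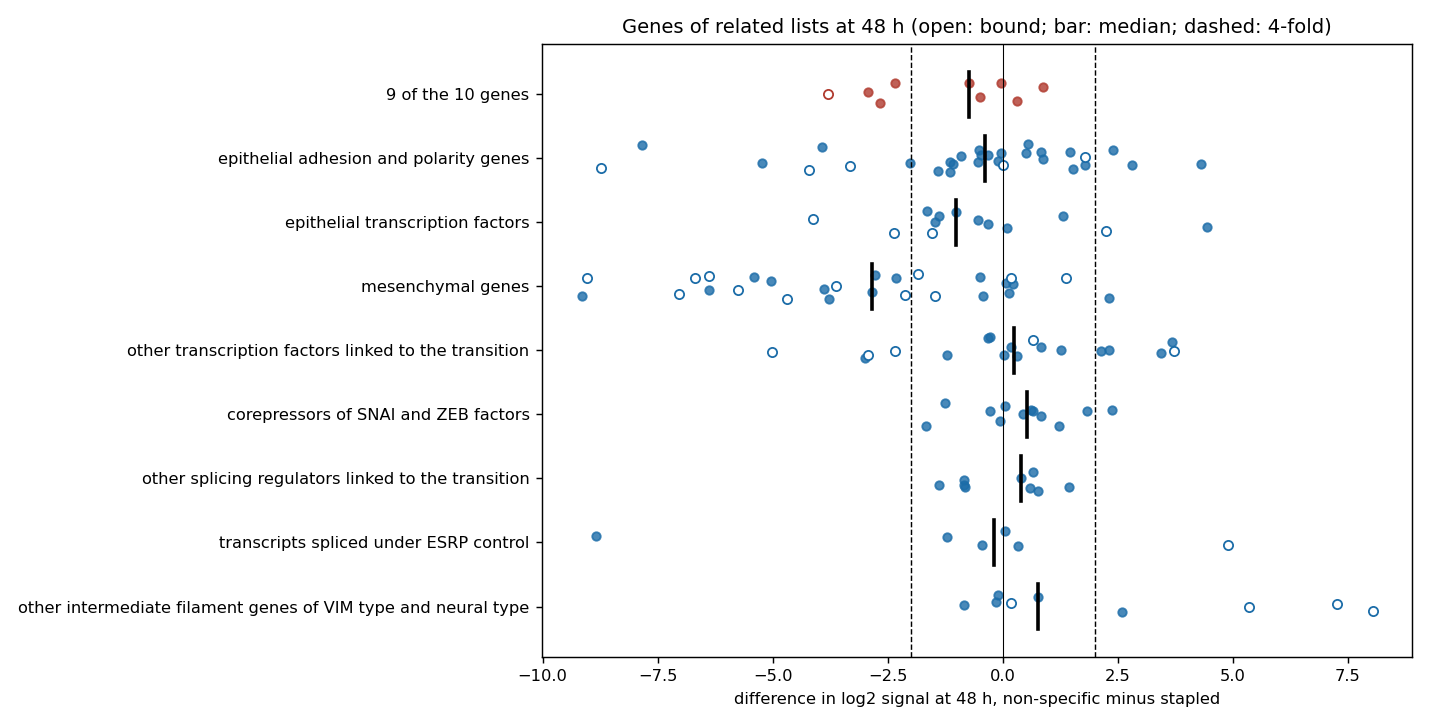
Difference in normalised log2 signal at 48 h, non-specific minus stapled, for each gene of the named lists and for 9 of the 10 genes, with the median of each list marked and open points for bounds. The mesenchymal list has its median at −2.84 and the list of adhesion genes at −0.39.

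Transcription factors beyond the 10 were mixed. Of 18 measured factors linked to the transition, 5 were higher and 4 lower by 4-fold or more, against 8.10% and 8.70% of all genes, with a median of 0.24. FOXC1, a forkhead factor, gave 8.34, 8.41, 8.44 and 11.89, a difference of 3.45. GSC, goosecoid, was measured on the non-specific 48 h array alone, a bound of 3.72, and KLF8 was dim there alone, a bound of −5.01. FOSL1, a subunit of AP-1, gave 8.19, 8.27, 8.32 and 5.32 and was 1 of the 4 lower genes. Of 13 measured epithelial factors, 2 were higher and 2 lower, against 8.10% and 8.70% of all genes, with a median of −1.01. The Grainyhead factor genes GRHL1, at 4.45 on 1 probe and 0.54 on the other, and GRHL2, a bound of 2.25, were the higher pair. EHF, an ETS factor of epithelia, was among the lower genes with a bound of −4.11, and ELF3 differed by −1.64.

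Partners of the 10 genes were read the same way. Of 12 corepressors that SNAI and ZEB proteins recruit, 1 passed 4-fold, against 16.8% of all genes, and the median was 0.53. That gene was EZH2, the histone H3 methyltransferase of the Polycomb complex, with 8.84, 8.82, 8.86 and 11.23, a difference of 2.37. The deacetylase genes HDAC2 and HDAC1 differed by 1.84 and 1.22, and the LIM protein genes WTIP and AJUBA by −1.67 and −1.25. Of 9 measured splicing regulators other than ESRP1, ESRP2 and RBM47, 0 passed 4-fold, against the same 16.8%. The splicing factor gene SRSF1 differed by 1.43 and MBNL1, a muscleblind protein, by −1.39, and RBFOX2, QKI and MBNL2 lay between −0.84 and −0.83. The median over these 9 genes was 0.41.

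Among 6 transcripts known to be spliced under ESRP control, CD44 was lower and FGFR2 higher, and the other 4 were under 4-fold, against 16.8% of all genes past 4-fold, with a median of −0.20. CD44, a hyaluronan receptor, gave 13.97, 14.01, 13.97 and 5.12 on its most intense probe, a difference of −8.85, and its other probe differed by −1.83. FGFR2, a receptor with alternative epithelial and mesenchymal exons, was measured at 8.85 on the non-specific 48 h array and had a bound of 4.89. CTNND1, the p120 catenin gene, differed by −1.22, ARHGEF11 by −0.44 and ENAH by 0.32. These probes read gene level signal, and exon use was not measured. No host transcript of miR-200 or miR-205 was matched to a probe by its accession.

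VIM could also be read beside the other intermediate filament genes of its type and of neurons. Of 9 measured, 4 were higher by 4-fold or more and 0 lower, against 8.10% and 8.70% of all genes, with a median of 0.76. The neurofilament genes NEFM and NEFL and the internexin gene INA were above background on the non-specific 48 h array alone, where they read 11.93, 11.15 and 9.25, with bounds of 8.05, 7.26 and 5.36. PRPH, which encodes peripherin, a filament of the same type as vimentin, gave 4.70, 4.65, 4.65 and 7.26, a difference of 2.60, and DES, desmin, of that type too, differed by −0.84. NEFM and INA are also among the embryonic kidney line markers given above.

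The genes whose pattern over the 4 arrays was most like that of single members were found by the Euclidean distance of log2 profiles centred on their means, among 17666 genes. For VIM these were KRT18, a simple epithelial keratin, at 0.02, ELL2 at 0.04 and PHLDA3 at 0.05. For ZEB1 they were RPL26L1-AS1, LINC01963 and ZNF226, all at 0.02, and for RBM47 they were DUSP5P1 at 0.01, CCT6B at 0.04 and MTFMT at 0.04. ESRP1 was not ranked because no array measured it. With 4 points a profile, of which 1 array sets most of the spread, such nearness describes these arrays alone.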

How the data were processed

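Total RNA from MCF-10A cells, 1 array for each of 4 conditions, was labelled with Cy3. The deposited scanner files held intensity per spot from Feature Extraction 10.7.1.1 per the file headers (9.5 per the submitters' processing notes). The authors' deposited gProcessedSignal is already background-corrected by that software. A deposited combined table of intensities equalled the geometric mean of these signals over spots without an outlier mark, within 0.1%, and was used as an alternative.

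Groups came from the labels. Control spots and 343 to 438 outlier-marked spots per array were left out, spots of a probe were averaged on the log2 scale, and the 4 arrays were quantile-normalised after a floor of 1. A further 9 probes without a usable spot on an array were dropped. Probes were named by RefSeq accession (28168 probes), the annotation table being on GRCh38.p14 and the array grid on an older build, so no probe position is given. A gene was read by its probe of highest mean signal. A probe not well above background on 1 array was raised to the lowest measured signal of that array (log2 3.57 to 3.94), which makes its fold a bound, and a probe dim on both arrays got none. With 1 array per condition no test was run, and precision is limited by how few arrays there are. The scanner's own error was 0.14 to 0.29 log2 for most measured member probes.

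The 10 genes, the gene lists and the call rule were chosen with earlier results of these data known. The text names every member probe and, per list, up to 5 genes with the largest 48 h difference, CDH1, CDH2, FN1, EPCAM and any gene past 4-fold among the other 3 arrays, except a few list genes that are not reported here. Scripts were tested on simulated data. Of the alternatives, 10 were planned and 1 was added after the data were seen. Python 3.11.15, pandas 2.3.3, scipy 1.17.1, R 4.3.3 and limma 3.58.1 (normexp) were used.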

Additional observations from a re-analysis of the deposited data

Results flagged for a closer look

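For 7 of 9 genes the change from 24 h to 48 h had opposite signs in the 2 arms, which rests on 1 array per condition and was not tested. Among all 15765 genes with both changes, 45.8% had opposite signs. On the log2 scale VIM changed by −2.23 with the non-specific peptide and by 0.04 with the stapled peptide. SNAI2 changed by −2.64 and 0.13, and TWIST2 by at most −2.82 and by 0.88. The other TWIST2 probe changed by at most −3.20 and by −0.05, so the opposite signs of TWIST2 depended on the probe. The rest of the 7 genes were under 4-fold in both arms. ZEB1 changed by −0.43 and 0.11, SNAI1 by 0.0927 and −0.72, ESRP2 by 0.34 and −0.04, and RBM47 by −0.0283 and 0.27. For VIM, SNAI1, ESRP2 and RBM47, 1 of the 2 changes was under 0.10 in size. TWIST1 and ZEB2 were lower at 48 h in both arms.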

How the results depend on the processing

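No paired analysis was possible because each condition had 1 array, and for the same reason no replicate could be left out. The 24 h differences of the 9 measured genes moved by less than 0.43, the SD of all probe differences at 24 h, in 72 of 72 recomputed values, and the 48 h differences in 72 of 80. For genes above background on both arrays, the settings with no bound, with only such probes and with the combined table repeat the main value by design. So does the mean over probes for genes with 1 probe. Those values are no sign of stability, and the SD pools bright and dim probes. No called direction turned. Of the member genes past 4-fold at 48 h, 4 in number, 1 (TWIST2) passed at 10-fold and 2 (TWIST1 and VIM) after normexp background correction with an offset of 50. The share of all genes fell as well, from 16.8% to 6.56% at 10-fold and to 9.03% after normexp. The member count from 24 h to 48 h with the non-specific peptide went from 4 to 0 at 10-fold and to 2 after normexp. The share of all genes went from 16.6% to 6.50% and to 8.78%. The mesenchymal median of −2.84 became −3.50 after scaling to the 75th percentile, −1.66 after normexp and −3.77 with no bound for dim probes. The median of the adhesion and polarity genes, −0.39, ranged from −0.62 after that scaling to −0.12 against the median of the other 3 arrays. It was −0.18 without normalisation, where their calls went from 3 higher and 7 lower to 5 and 6. Without normalisation 18.1% of all genes passed 4-fold at 48 h. Over all settings the 48 h difference ran from −2.66 to −2.30 for VIM, −2.96 to −2.53 for TWIST1, −2.83 to −1.69 for SNAI2, −4.98 to −1.79 for TWIST2, −1.28 to −0.26 for ZEB1, −0.76 to −0.12 for ZEB2, 0.16 to 1.25 for SNAI1, 0.27 to 0.60 for ESRP2 and −0.05 to 0.36 for RBM47. Without normalisation between arrays the median of all genes at 48 h went from 0.03 to 0.26. Where probes dim on either array were dropped, TWIST2 had no value and 3 of 8 genes passed, against 13.8% of all genes. Against the median of the other 3 arrays, a setting added after the data were seen, the same 4 genes passed, against 16.7% of all genes. The cause of these shifts was not tested. Signal over background limits ESRP1 on every array, the second RBM47 probe on 3 and TWIST2 on 1.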

Other observations

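Some genes around the 10 regulators had probes that differed at 48 h, as ZEB1 did. HMGA2, a chromatin architectural protein, differed by −0.27 on its most intense probe and by −2.88 on another. FGFR2 differed by 4.89, a bound, on its most intense probe and by 1.78 on another, and QKI probes ran from −1.09 to 0.39. OCLN had a 48 h difference of 1.47 on its most intense probe and 2.68 on the other. Which transcripts these probes read was not analysed here.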
